A study of Mus musculus with 4 samples.

Results

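Integrins are the transmembrane receptors by which cells hold the extracellular matrix and each other, and laminins are the cross-shaped proteins that build basement membranes and serve as ligands for several of them. The genes described here were the rows of the deposited table whose symbol named an integrin alpha chain, an integrin beta chain or a laminin chain. They numbered 37 of 43346 genes, of which 26 encode integrins (18 alpha and 8 beta chains) and 11 encode laminins (5 alpha, 3 beta and 3 gamma chains). RNA came from whole hearts of 6 weeks old C57BL/6 mice, 2 of them wild type (WT) and 2 with the arginine methyltransferase gene Prmt1 deleted in cardiomyocytes (PRMT1-cKO). The deletion spares the other cells of the heart by design, the sources used here do not give the driver of the deletion, and each library is labelled as a separate replicate with nothing said on pooling. The p-values therefore rest on the spread between 2 libraries of a group, drawn in the tests toward a trend over all genes. In such bulk RNA, fewer cells of a type and less RNA per cell cannot be told apart.

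An integrin is a pair of 1 alpha and 1 beta chain, and the pair sets the ligand: collagen, laminin, the RGD peptide of fibronectin and related proteins, or counter-receptors on other cells. The beta chain Itgb1 joins many alpha chains, and in cardiomyocytes its main partner in adult life is the laminin-binding chain Itga7. A laminin is a trimer of 1 alpha, 1 beta and 1 gamma chain, and the trimers around adult heart muscle cells are built chiefly from Lama2, Lamb1 or Lamb2, and Lamc1. Leukocytes carry their own integrins, which pair Itgb2 with Itgal, Itgam, Itgax or Itgad, and platelets carry the pair Itga2b and Itgb3.

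The stretches of 250 bases before the annotated starts of 4 integrin genes that rose in PRMT1-cKO hearts are printed to show the sequence upstream of a fibronectin receptor chain (Itga5), a vitronectin receptor chain (Itgb5) and 2 leukocyte chains (Itgam and Itgax). They are RefSeq sequences on GRCm38.p6, in which 23 of the 37 genes had a match. Each is written 5′ to 3′ on the strand of its gene, and capitals mark matches on either strand to GGGCGG (an SP1 core, read as CCGCCC on the other strand), GAGGAA (a PU.1 core, TTCCTC on the other strand), TGANTCA (the AP-1 site) and GGAATG (a TEAD core). No match overlapped another one in these 4 sequences.
Itga5, chr15:103366792-103367041, minus strand: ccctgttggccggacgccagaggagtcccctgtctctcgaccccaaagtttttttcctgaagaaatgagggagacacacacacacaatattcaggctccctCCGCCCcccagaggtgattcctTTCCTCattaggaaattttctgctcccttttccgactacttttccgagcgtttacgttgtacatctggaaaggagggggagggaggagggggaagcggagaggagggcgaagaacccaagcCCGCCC
Itgb5, chr16:33829415-33829664, plus strand: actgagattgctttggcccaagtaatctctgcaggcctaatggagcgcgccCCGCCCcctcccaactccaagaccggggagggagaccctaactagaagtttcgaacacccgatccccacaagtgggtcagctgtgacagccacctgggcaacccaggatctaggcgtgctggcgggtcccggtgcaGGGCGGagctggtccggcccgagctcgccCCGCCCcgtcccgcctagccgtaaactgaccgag
Itgam, chr7:128062390-128062639, plus strand: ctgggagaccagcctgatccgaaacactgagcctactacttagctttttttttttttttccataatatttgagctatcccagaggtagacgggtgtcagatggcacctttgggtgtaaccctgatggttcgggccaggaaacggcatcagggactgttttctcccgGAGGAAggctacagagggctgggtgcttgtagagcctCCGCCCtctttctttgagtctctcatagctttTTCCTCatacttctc
Itgax, chr7:128129300-128129549, plus strand: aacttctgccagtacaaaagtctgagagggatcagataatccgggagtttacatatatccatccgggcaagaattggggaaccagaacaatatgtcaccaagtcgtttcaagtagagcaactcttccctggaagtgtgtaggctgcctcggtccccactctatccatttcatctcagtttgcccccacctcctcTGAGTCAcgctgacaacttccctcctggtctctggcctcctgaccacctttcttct
The Itga5 window held 2 SP1 matches and 1 PU.1 match, the Itgb5 window 3 SP1 matches, the Itgam window 1 SP1 and 2 PU.1 matches, and the Itgax window 1 AP-1 match. GGGCGG was present in 8 of the 23 matched windows (34.8%) against 32.7% of all 32851 windows of that length. GAGGAA was present in 11 of 23 (47.8%) against 23.3% of all. TGANTCA was present in 1 of 23 against 6.75% of all, and GGAATG in 2 of 23 against 12.6% of all. Among the 11 matched genes whose gene reads rose, 5 held GGGCGG, 5 held GAGGAA, 1 held TGANTCA and 0 held GGAATG. A match describes letters in the window and no bound factor.

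Each gene has up to 3 readouts in the deposited table. Exon reads were nearly all reads that crossed an exon junction, and gene reads were the sum of exon and intron reads. Intron reads, called reads outside exons below, carry that label as deposited. The sources used here do not say where reads inside an exon, off any junction, were counted. Libraries held between 18291730 and 25509854 gene reads and between 544891 and 764806 exon reads. Exon reads were 2.45 and 2.51% of the gene reads of the WT libraries and 4.18 and 3.60% of those of the PRMT1-cKO libraries, and 17.2 to 22.0% of the reads of the integrin and laminin genes. The mitochondrial gene mt-Rnr2 held 64.9 and 65.8% of the WT gene reads against 52.8 and 51.2%, so read composition moved with genotype, and its part in the changes was not tested. Values are given as reads, or as TMM-scaled counts-per-million values (CPM) of the same readout, and changes as log2 of PRMT1-cKO over WT with the standard error of edgeR's quasi-likelihood test. A change passed at a Benjamini-Hochberg adjusted p under 0.05 over all genes tested. Prmt1 itself had 33 and 18 gene reads in the WT hearts and 33 and 44 in the PRMT1-cKO hearts, with 0 exon reads in every library (log2 change 0.44 ± 0.34, edgeR adjusted p = 0.394), and these reads outside exons do not check the deletion. Cardiomyocyte markers were abundant in every library and summed to 4521 and 4603 CPM in WT and 2411 and 2765 CPM in PRMT1-cKO.

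Per kilobase of exon, the most abundant of these genes in WT hearts were Lamb2, the laminin beta chain of mature basement membranes, and Itga7. Lamb2 had 289 ± 3.82 CPM of exon reads per kilobase of exon (SD, n = 2), and Itga7 had 284 ± 10.9. The difference between them was within the spread of the 2 libraries. Lamc1, the common laminin gamma chain, followed at 149 ± 16.8, Itgb1 at 135 ± 14.7, the collagen receptor chain Itga1 at 103 ± 18.8 and Lama2 at 101 ± 6.24. The libraries of Lamc1 and Itgb1 overlapped, as did those of Itga1 and Lama2, whereas Itgb1 lay above Itga1 in every library. Itga5 was at 91.4 ± 6.04 and ranked 7, just below Lama2. In PRMT1-cKO hearts Itga7 was at 324 ± 10.9, Lamb2 at 261 ± 9.35 and Itga5 at 217 ± 2.65 on the same scale, so that Itga5 ranked 3, above Lamc1 at 199 ± 0.509 and Itgb1 at 136 ± 6.32. The deposited RPKM values, averaged over the 4 libraries, put the same 5 genes highest, from Itga7 at 9.54 to Itgb1 at 4.18.

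**Figure D1:**
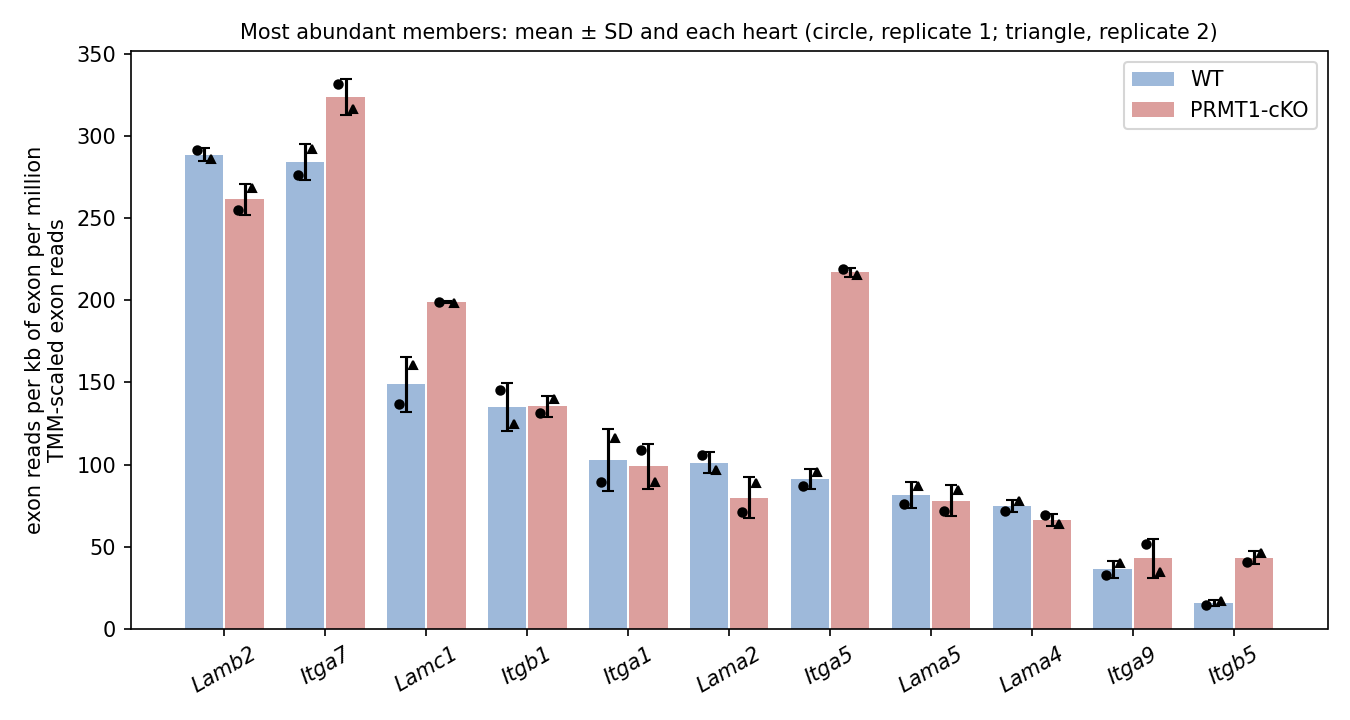
TMM-scaled CPM of exon reads per kilobase of exon (vertical axis, linear, from 0) for the 11 integrin and laminin genes highest on this scale in WT. Genes are in order of their WT value. Bars are means of 2 hearts with SD, and circles and triangles are replicates 1 and 2. Itga5 moves from 91.4 in WT to 217 in PRMT1-cKO, while Itgb1 is at 135 and 136.

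Among integrin genes 14 rose in PRMT1-cKO hearts and 3 fell, and among laminin genes 1 rose and 1 fell. Of the 36 genes with enough gene reads for a test, 15 rose, 4 fell and 17 did not pass. Over all 13869 genes tested 22.7% changed, 11.5% higher and 11.2% lower. The median log2 change was 0.27 over the 36 genes and 0.01 over all genes. The median was 0.91 over the 25 integrins tested and -0.11 over the 11 laminins. For all 19 genes that changed, the 2 WT and the 2 PRMT1-cKO values did not overlap. Groups also did not overlap for genes that did not pass, Itga1, Itgb1 and Lamb1 among them, so this adds no support to the calls. The share over all genes was not computed. The gene left untested, the collagen receptor chain Itga10, had 6 and 9 gene reads in the WT hearts and 2 and 3 in the PRMT1-cKO hearts.

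Exon reads, which follow spliced RNA, allowed a test of 18 of these genes, and 8 rose, 0 fell and 10 did not pass. Over all 4756 genes tested on exon reads 36.2% changed, 17.6% higher and 18.7% lower, and the median log2 change was 0.47 for the 18 genes against 0.00 for all. A gene that did not pass is not thereby shown to be unchanged. On intron reads, 13 rose, 7 fell and 15 of 35 did not pass, where 21.8% of 13217 genes changed, 10.8% higher and the rest lower. Without WT replicate 1 the gene-read rises fell from 15 to 9 and the falls from 4 to 2.

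**Figure D2:**
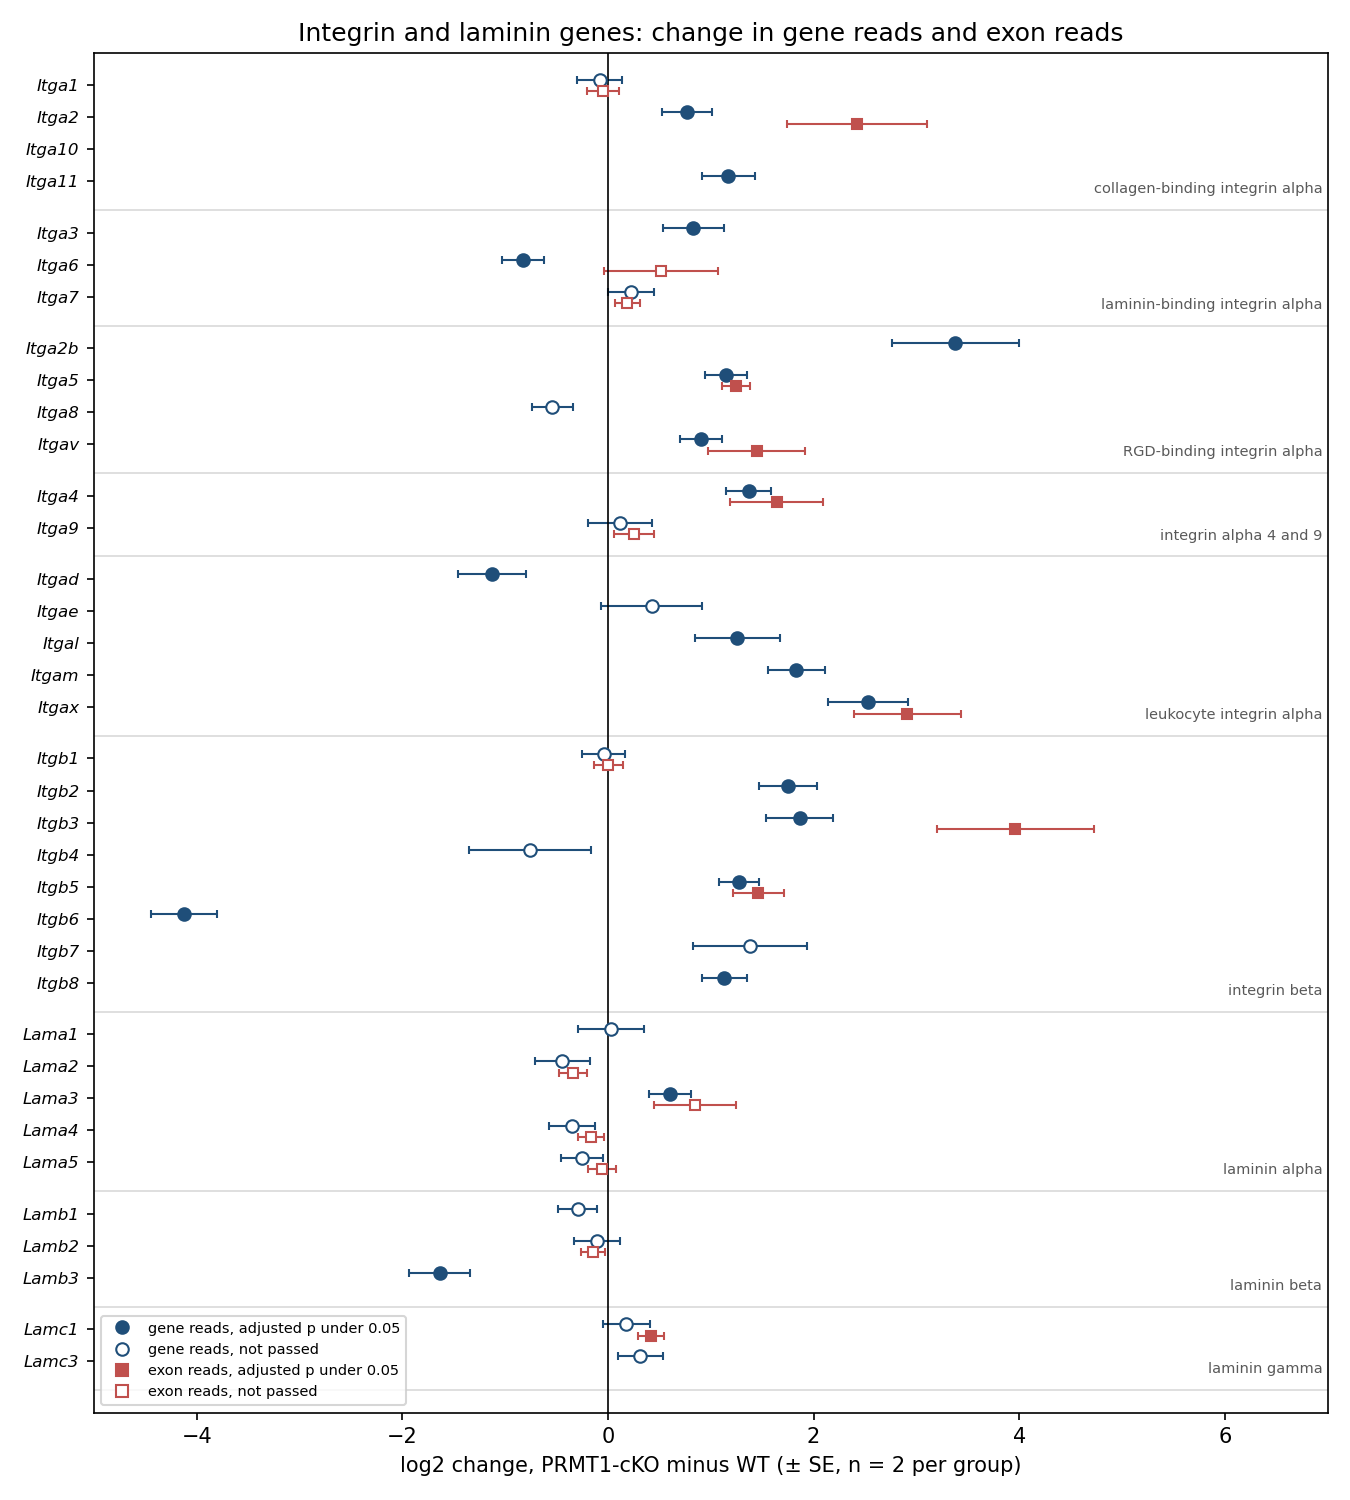
Log2 change of PRMT1-cKO over WT (horizontal axis, ± SE, n = 2 per group) in gene reads (circles) and exon reads (squares). Rows are 36 integrin and laminin genes, grouped by role, and that of Itga10, untested in both readouts, holds no symbol. Filled symbols passed an adjusted p of 0.05. Filled symbols lie mostly to the right in the integrin groups, and Itgb6 at -4.12 lies farthest to the left.

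The fibronectin and vitronectin receptor chains Itga5, Itgav and Itgb5 rose. Itga5 (ENSMUSG00000000555, chromosome 15, 103344289 to 103366763, GRCm38), the alpha chain of the classical fibronectin receptor, had 17.8 and 19.5 CPM of gene reads in the WT hearts and 45.3 and 37.2 in the PRMT1-cKO hearts. Its exon reads numbered 236 and 225 in the WT hearts and 709 and 603 in the PRMT1-cKO hearts, or 382 and 419 against 958 and 942 CPM. Both PRMT1-cKO hearts were above both WT hearts in either readout, and the exon reads were 2.38-fold higher (log2 change 1.25 ± 0.14, edgeR adjusted p = 3.19e-06). The gene reads were 2.21-fold higher (1.15 ± 0.21, edgeR adjusted p = 0.000365). Itgav, the alpha chain of the vitronectin receptors and of the integrins that release TGF-beta, had 6.69 and 7.95 CPM in the WT hearts and 14.1 and 13.2 in the PRMT1-cKO hearts (log2 change 0.91 ± 0.20, edgeR adjusted p = 0.00223). Its exon reads were few, 6 and 7 against 24 and 19, and also rose (1.45 ± 0.47, edgeR adjusted p = 0.0249). The gene-read call was lost when WT replicate 1 was left out (edgeR adjusted p = 0.122, range over all alternatives 0.000226 to 0.122), and the exon-read call whichever of the 4 libraries was left out (adjusted p over all alternatives from 0.0239 to 0.183 with edgeR, and 0.304 with DESeq2). Itga8, an RGD-binding chain of mesenchymal cells, had 354 and 267 gene reads in the WT hearts and 187 and 293 in the PRMT1-cKO hearts and did not pass (-0.54 ± 0.20, edgeR adjusted p = 0.0595), while its intron reads, 350 and 266 against 184 and 290, passed as lower (-0.55 ± 0.19, edgeR adjusted p = 0.0390). That intron call held only with PRMT1-cKO replicate 2 left out among the fits that dropped a library (adjusted p over all alternatives from 0.00292 to 0.219 with edgeR, and 0.190 with DESeq2).

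The beta chains that pair with Itgav moved apart. Itgb5 (ENSMUSG00000022817, chromosome 16, 33829665 to 33949153), which forms a vitronectin receptor, had 14.2 and 14.8 CPM of gene reads in the WT hearts and 35.1 and 34.9 in the PRMT1-cKO hearts, with little spread within either group. It was 2.42-fold higher (log2 change 1.27 ± 0.20, edgeR adjusted p = 8.27e-05), and its exon reads, 30 and 31 against 101 and 100, rose by 1.46 ± 0.25 (edgeR adjusted p = 0.000253). Itgb8, whose pair with Itgav activates latent TGF-beta, had 4.56 and 3.92 CPM in the WT hearts and 10.3 and 8.41 in the PRMT1-cKO hearts (1.13 ± 0.22, edgeR adjusted p = 0.000636). The exon reads were 8 and 1 against 11 and 9, too few for a test. Itgb6 (ENSMUSG00000026971, chromosome 2, 60598292 to 60722643), in other tissues an epithelial activator of latent TGF-beta, had the largest change of the 36 genes and in the other direction. It had 546 and 207 gene reads in the WT hearts and 23 and 23 in the PRMT1-cKO hearts, or 24.2 and 12.1 against 1.13 and 0.962 CPM. The lower WT heart was still far above both PRMT1-cKO hearts, and the fall was 17.4-fold (log2 change -4.12 ± 0.32, edgeR adjusted p = 2.79e-08), staying between -4.55 and -3.54 when a library was left out. All of these reads were labelled intron reads, with 0 exon reads in every library, so they do not show a change in spliced Itgb6 RNA. A library with 0 counted could still hold 3 exon reads, or 4.05 to 5.59 CPM depending on the library, by counting error alone. Fibroblast markers (7 of 8 higher) and leukocyte markers (8 of 8 tested higher) moved with the chains that rose, and their part in the Itga5, Itgav, Itgb5 and Itgb8 values was not tested.

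**Figure D3:**
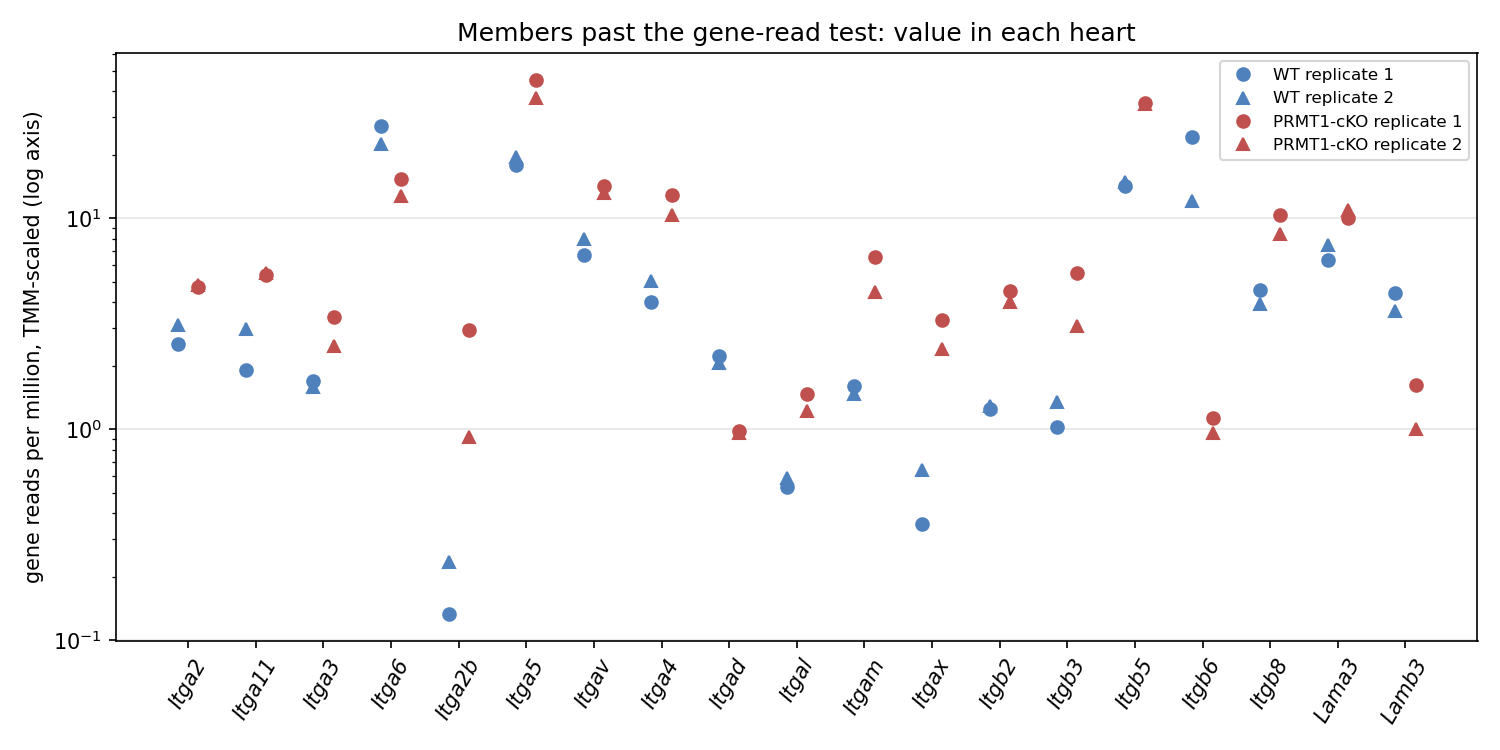
TMM-scaled CPM of gene reads (log axis) in each of the 4 hearts for the 19 integrin and laminin genes past the gene-read test; blue is WT and red is PRMT1-cKO, circles replicate 1 and triangles replicate 2. No gene has overlapping groups, and the widest gaps are those of Itga2b and Itgb6.

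Itga2b and Itgb3, which form the fibrinogen receptor of platelets, rose together, and PRMT1-cKO replicate 1 was higher than replicate 2 for both. Itga2b (chromosome 11, 102453297 to 102470122) had 3 and 4 gene reads in the WT hearts and 60 and 22 in the PRMT1-cKO hearts (log2 change 3.38 ± 0.62, edgeR adjusted p = 0.000435), and the change was 2.31 without PRMT1-cKO replicate 1. Its exon reads were 0 and 0 against 48 and 10, at least 7.71-fold higher when set against a floor of 3 reads per WT library and at least 2.99-fold without PRMT1-cKO replicate 1. Itgb3, which also pairs with Itgav, had 23 and 23 gene reads in the WT hearts and 112 and 74 in the PRMT1-cKO hearts (1.86 ± 0.33, edgeR adjusted p = 0.00027). The exon reads were 1 and 2 against 48 and 13 (3.96 ± 0.76, edgeR adjusted p = 0.000752), which no longer passed without PRMT1-cKO replicate 1 (log2 change 2.88, edgeR adjusted p = 0.0740, the highest over all alternatives, from 1.11e-10). The platelet granule genes moved with them: Pf4 had 28 and 20 gene reads in the WT hearts and 126 and 59 in the PRMT1-cKO hearts, and Ppbp had 0 and 1 against 76 and 14. The 6 platelet markers in the table summed to 1.28 and 1.64 CPM in the WT hearts and 10.4 and 3.55 in the PRMT1-cKO hearts. Pf4 and Ppbp, the only markers that could be tested, both rose, and Gp1bb was at 0 in every library. Gene reads of Gp9 were 0 and 1 against 3 and 5, of Gp5 1 and 0 against 4 and 4, and of Gp1ba 0 and 6 against 2 and 3. The part of platelet RNA in the Itga2b and Itgb3 values was not tested.

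The leukocyte chains Itgax, Itgam, Itgal and Itgb2 rose, while Itgad fell and Itgae and Itgb7 did not pass. Itgax (chromosome 7, 128129547 to 128150656), a chain of dendritic cells and macrophages, had 8 and 11 gene reads in the WT hearts and 67 and 57 in the PRMT1-cKO hearts, a 5.78-fold rise (log2 change 2.53 ± 0.39, edgeR adjusted p = 7.18e-05). Its exon reads were 2 and 5 against 35 and 30 (2.91 ± 0.52, edgeR adjusted p = 0.000395), with a log2 change of 2.29 without WT replicate 1 and 3.76 without WT replicate 2. Both PRMT1-cKO hearts were far above both WT hearts in either readout. Itgam (chromosome 7, 128062640 to 128128160), the alpha chain of the complement receptor of macrophages and neutrophils, had 36 and 25 gene reads in the WT hearts and 133 and 107 in the PRMT1-cKO hearts (1.83 ± 0.28, edgeR adjusted p = 6.69e-05). Their partner Itgb2 had 28 and 22 against 92 and 96 (1.75 ± 0.28, edgeR adjusted p = 0.000107). For both genes the groups were far apart, but exon reads were scarce, 0 and 0 against 1 and 2 for Itgam and 7 and 1 against 17 and 4 for Itgb2. Itgal, the lymphocyte and myeloid chain, had 12 and 10 gene reads against 30 and 29 (1.26 ± 0.42, edgeR adjusted p = 0.0339), and its call was lost when any library but PRMT1-cKO replicate 2 was left out (adjusted p over all alternatives from 0.0235 to 0.229 with edgeR, and 0.246 with DESeq2). Itgae, of mucosal lymphocytes, had 10 and 10 against 17 and 13, and Itgb7, its beta chain, 4 and 7 against 13 and 20, and neither passed (edgeR adjusted p = 0.606 and 0.0818).

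Itgad, a macrophage chain, was the only leukocyte integrin lower in PRMT1-cKO, with 50 and 35 gene reads in the WT hearts and 20 and 23 in the PRMT1-cKO hearts (log2 change -1.13 ± 0.33, edgeR adjusted p = 0.0173). It had 0 exon reads in every library. Its gene model overlaps Cox6a2, a heart and muscle cytochrome oxidase subunit on the opposite strand, which had 1002 and 758 reads in the WT hearts and 182 and 172 in the PRMT1-cKO hearts (-2.46 ± 0.21, edgeR adjusted p = 1.04e-07). The sources used here do not say whether counting used strand, and the part of Cox6a2 in the Itgad reads was not tested. The Itgad call was lost when WT replicate 1 was left out (edgeR adjusted p = 0.131, the highest of the edgeR alternatives, from 0.00944) and under DESeq2 (adjusted p = 0.155). Leukocyte markers outside the integrins moved the same way as the chains that rose: the 11 in the table summed to 21.6 and 27.7 CPM in the WT hearts and 76.5 and 56.3 in the PRMT1-cKO hearts, and all 8 that could be tested rose. The T cell marker Cd3e had 0 and 1 gene reads in the WT hearts and 1 and 1 in the PRMT1-cKO hearts. The share of leukocyte number in these changes was not tested.

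Itga4, the chain for fibronectin and the vascular adhesion molecule VCAM, rose in each readout. It had 90 and 86 gene reads in the WT hearts and 262 and 247 in the PRMT1-cKO hearts, a 2.58-fold rise (log2 change 1.37 ± 0.22, edgeR adjusted p = 0.000111). The exon reads were 7 and 7 against 32 and 21 (1.64 ± 0.45, edgeR adjusted p = 0.00998), and this exon call was lost without WT replicate 1 or without PRMT1-cKO replicate 1 (adjusted p over all alternatives from 0.00458 to 0.0891 with edgeR, and 0.173 with DESeq2). The gene overlaps Cerkl, which had 33 and 23 reads against 38 and 70 and did not pass. Itga9, the related chain for tenascin and other ligands, had far more gene reads than any other integrin, 12975 and 13745 in the WT hearts and 17427 and 15353 in the PRMT1-cKO hearts, and 1.32% of them were exon reads. It passed in neither gene reads (0.12 ± 0.31, edgeR adjusted p = 0.840) nor exon reads (156 and 165 against 293 and 170, 0.25 ± 0.19, edgeR adjusted p = 0.344).

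Of the 4 collagen-binding alpha chains, Itga2 and Itga11 rose, Itga1 did not pass and Itga10 was untested. Itga11, a chain of fibroblasts, had 1.90 and 2.98 CPM of gene reads in the WT hearts and 5.35 and 5.48 in the PRMT1-cKO hearts (log2 change 1.17 ± 0.26, edgeR adjusted p = 0.00222). Its exon reads were 0 and 0 against 6 and 4, at least 1.38-fold higher against the floor of 3 reads per WT library. The gene-read call was lost when WT replicate 1 was left out (edgeR adjusted p = 0.103, range over all alternatives 0.00013 to 0.103). Itga2, a collagen receptor chain of platelets, epithelium and fibroblasts, had 57 and 53 gene reads in the WT hearts and 96 and 115 in the PRMT1-cKO hearts (0.77 ± 0.24, edgeR adjusted p = 0.0268). The exon reads were 1 and 3 against 16 and 11 (2.42 ± 0.68, edgeR adjusted p = 0.0108), and this call was lost whichever library was left out (adjusted p over all alternatives from 0.0101 to 0.264 with edgeR, and 0.209 with DESeq2). Without either WT library the gene-read call was lost too (adjusted p over all alternatives from 0.0240 to 0.322 with edgeR, and 0.187 with DESeq2). Itga1, with the most gene reads of the 4, had 79.7 and 73.9 CPM against 71.5 and 73.7, which nearly touch (-0.08 ± 0.22, edgeR adjusted p = 0.846). Fibroblast markers summed to 81.7 and 106 CPM in the WT hearts and 420 and 265 in the PRMT1-cKO hearts, with 7 of 8 higher, and their part in the Itga11 change was not tested.

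The laminin receptors of the muscle cell showed no change past the threshold in exon reads. Itga7 had 686 and 629 exon reads in the WT hearts and 984 and 812 in the PRMT1-cKO hearts (log2 change 0.19 ± 0.12, edgeR adjusted p = 0.250), and 90.4% of its gene reads were exon reads. Itgb1 had 367 and 273 exon reads against 396 and 366, a log2 change of 0.00 ± 0.14 (edgeR adjusted p = 0.986), and its gene reads gave -0.04 ± 0.21. In CPM the Itgb1 groups overlapped in exon reads and lay close together without overlap in gene reads. Itga6, a laminin receptor chain of endothelium and epithelium, fell in gene reads, from 27.2 and 22.4 CPM in WT to 15.3 and 12.7 in PRMT1-cKO (-0.83 ± 0.20, edgeR adjusted p = 0.00492). Its exon reads did not follow, with 14 and 9 in the WT hearts and 33 and 7 in the PRMT1-cKO hearts (0.52 ± 0.56, edgeR adjusted p = 0.507), and the gene-read call was lost when WT replicate 1 was left out (edgeR adjusted p = 0.163, range over all alternatives 0.000121 to 0.163). In gene reads, endothelial markers summed to 278 and 281 CPM in the WT hearts and 194 and 210 in the PRMT1-cKO hearts, with 3 of 8 lower and 0 higher. On exon reads 2 of the 6 tested were lower and 1 was higher. The part of these markers in the Itga6 change was not tested. Itga3 had 38 and 27 gene reads against 69 and 59 (0.83 ± 0.29, edgeR adjusted p = 0.0472), all outside exons, and the call was lost when any library but PRMT1-cKO replicate 2 was left out (adjusted p over all alternatives from 0.0146 to 0.262 with edgeR, and 0.276 with DESeq2). Itgb4, the beta chain of hemidesmosomes, had 17 and 14 gene reads against 17 and 3 and did not pass (-0.76 ± 0.59, edgeR adjusted p = 0.408).

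Among laminins, Lamc1 rose in exon reads and Lamb3 fell in gene reads. Lamc1 (chromosome 1, 153218922 to 153332786) had 701 and 714 exon reads in the WT hearts and 1219 and 1051 in the PRMT1-cKO hearts, or 1133 and 1330 against 1648 and 1642 CPM. Both PRMT1-cKO hearts were above both WT hearts, by 1.34-fold (log2 change 0.42 ± 0.13, edgeR adjusted p = 0.0164), and the call was lost when WT replicate 1 was left out (edgeR adjusted p = 0.332, range over all alternatives 0.000835 to 0.332). Its gene reads gave 0.18 ± 0.23 and did not pass. Lamb3, the beta chain of the epithelial laminin, had 100 and 62 gene reads in the WT hearts and 33 and 24 in the PRMT1-cKO hearts, with no overlap in CPM (-1.64 ± 0.30, edgeR adjusted p = 0.000385). It had 0 exon reads in every library, and its model overlaps G0s2 and Hsd11b1 on the other strand, of which G0s2 had 31 and 16 reads in the WT hearts and 19 and 14 in the PRMT1-cKO hearts (-0.64 ± 0.42, edgeR adjusted p = 0.316) and Hsd11b1 had 2 and 1 against 10 and 2. Lama3, its epithelial alpha partner, had 143 and 128 gene reads against 205 and 260 (0.60 ± 0.20, edgeR adjusted p = 0.0363), a call lost without either WT library or PRMT1-cKO replicate 2 (adjusted p over all alternatives from 0.0198 to 0.444 with edgeR, and 0.173 with DESeq2). Its exon reads, 13 and 14 against 27 and 31, did not pass (0.85 ± 0.40, edgeR adjusted p = 0.111). Epicardial and epithelial markers summed to 15.1 and 13.8 CPM against 25.2 and 20.6, with 2 of 5 tested higher and 0 lower, and their part in the Lama3 and Lamb3 values was not tested.

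The main laminin chains of heart muscle and vessels did not pass on gene or exon reads, apart from Lamc1. Lama2, the muscle alpha chain, had 1067 and 849 exon reads in the WT hearts and 859 and 928 in the PRMT1-cKO hearts (log2 change -0.34 ± 0.13, edgeR adjusted p = 0.0568). It passed as lower at a minimum count of 30 (edgeR adjusted p = 0.0339) and when PRMT1-cKO replicate 2 was left out (-0.48, edgeR adjusted p = 0.000383). Lamb2 had 1096 and 934 against 1147 and 1044 (-0.14 ± 0.12, edgeR adjusted p = 0.372). Lama5, the alpha chain of mature vascular basement membranes, had 535 and 532 exon reads against 603 and 618 (-0.06 ± 0.14, edgeR adjusted p = 0.773). In CPM the groups overlapped for Lama5 and not for Lama2 or Lamb2. Lama4, the endothelial alpha chain, had 1967 and 1343 gene reads against 1385 and 1484 (-0.35 ± 0.22, edgeR adjusted p = 0.298). Lama1, Lamb1 and Lamc3 did not pass either, and of their gene reads 0.74, 0.20 and 0.11% were exon reads.

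Lama5 and Lamb2 were the members past the test of exon against intron change. The exon change exceeded the intron change by more in Itgb3 (2.73), Itga2 (1.90) and Itga6 (1.56). These did not pass (edgeR diffSpliceDGE, Simes adjusted p = 0.0985, 0.349 and 0.103), nor did Itga2b, with 0 exon reads in both WT hearts. Intron reads of Lama5 (chromosome 2, 180176373 to 180225859) were 12.5 and 13.2 CPM in the WT hearts and 5.95 and 5.80 in the PRMT1-cKO hearts (log2 change -1.12 ± 0.20, edgeR adjusted p = 6.81e-05). Those of Lamb2 (chromosome 9, 108479736 to 108490530) were 4.65 and 4.51 against 2.47 and 1.75 CPM (-1.13 ± 0.26, edgeR adjusted p = 0.00138). For both genes the intron reads of every PRMT1-cKO heart were below those of every WT heart, while their exon reads did not pass. In 1 fit over both features, the exon change exceeded the intron change by 1.14 for Lama5 (edgeR diffSpliceDGE, Simes adjusted p = 0.0464) and by 1.09 for Lamb2 (edgeR diffSpliceDGE, Simes adjusted p = 0.0452). These were 2 of the 19 members tested, where 3.88% of 4196 genes passed, 1.95% with the exon change above and 1.93% below, and the median difference over all genes was 0.18. Both calls were lost without either WT library, without PRMT1-cKO replicate 1 and with a replicate block, and that of Lamb2 also without PRMT1-cKO replicate 2 (adjusted p over all alternatives from 0.00656 for Lama5 and 0.0283 for Lamb2 up to 1), whereas the size of the difference stayed between 0.96 and 1.33.

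**Figure D4:**
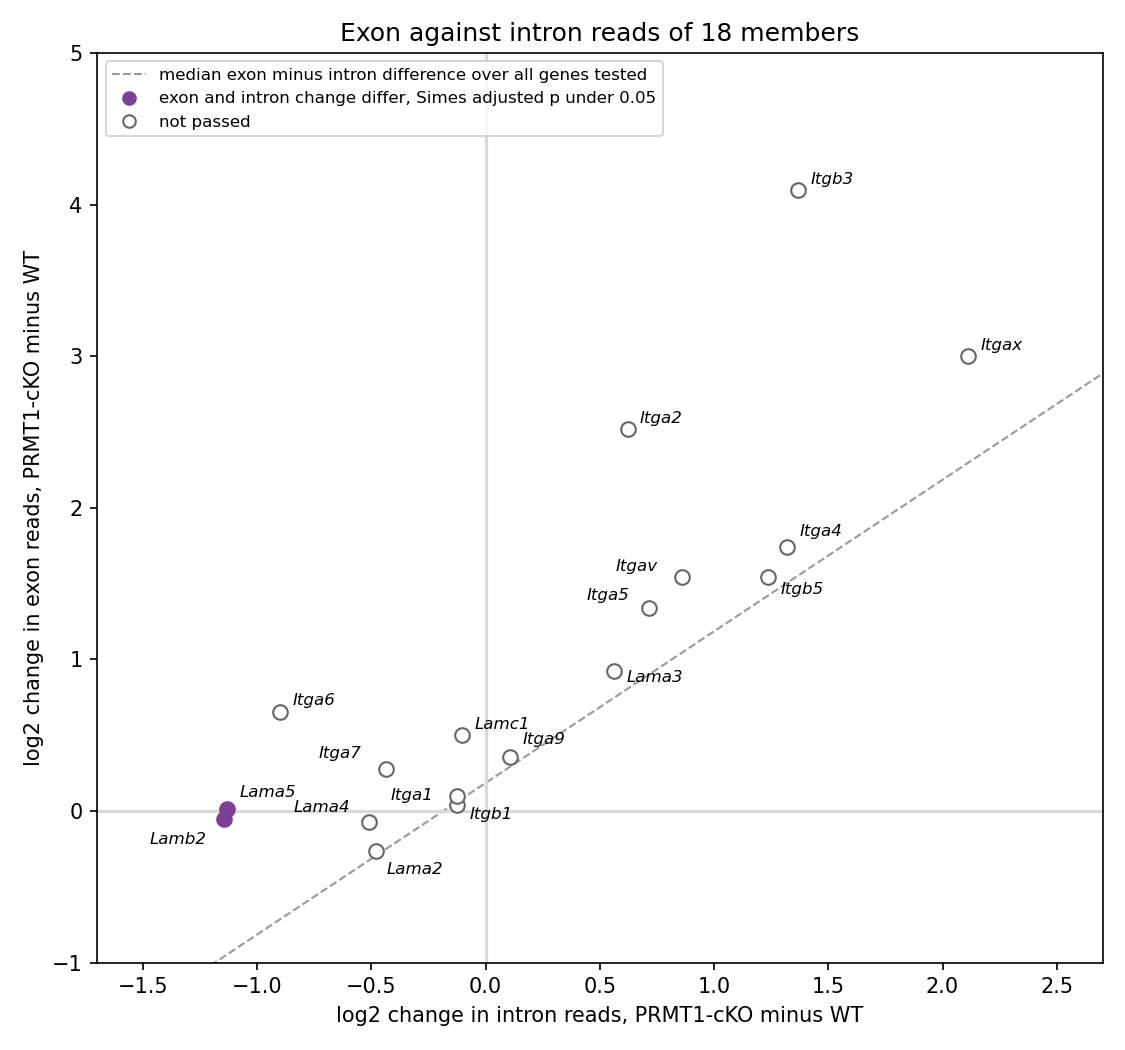
Log2 change of PRMT1-cKO over WT in exon reads (vertical axis) against intron reads (horizontal axis) for 18 genes with both features past the filter, from the fit over both features; the dashed line is the median difference of 0.18 over all genes tested. Lama5 and Lamb2, filled, sit to the left at exon changes near 0, and Itgb3 sits highest above the line. Itga2b is left out because its WT exon reads were 0.

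Genes that work with integrins were read from 4 lists: cytoplasmic adaptors, ligands, basement membrane proteins and partner membrane proteins. Over all genes tested, 11.5% rose and 11.2% fell in gene reads, and 17.6% rose and 18.7% fell in exon reads. Of 25 integrin ligands tested on gene reads 16 rose and 1 fell, with a median log2 change of 1.45, and on exon reads 12 of 19 rose and 0 fell. The largest were Thbs1, a thrombospondin (136 and 103 gene reads against 1460 and 860, log2 change 3.16 ± 0.28), Ctgf, a matricellular growth factor (3.15 ± 0.26), and Fn1, the fibronectin bound by Itga5 (123 and 74 against 724 and 628, 2.65 ± 0.23). The collagen chains Col1a1 and Col1a2 followed at 2.60 ± 0.35 and 2.27 ± 0.28. Fibroblast markers, a list that also holds Col1a1 and Col1a2, moved with the ligands (7 of 8 higher, 81.7 and 106 against 420 and 265 CPM), and their part in the ligand values was not tested. Of 35 adaptors tested 7 rose and 7 fell, with a median of 0.15, and on exon reads 11 of 22 rose and 4 fell. Itgb1bp2, the muscle protein melusin that binds the tail of Itgb1, had the largest change among them, with 925 and 674 gene reads in the WT hearts and 182 and 164 in the PRMT1-cKO hearts, a 5.10-fold fall (-2.35 ± 0.21, edgeR adjusted p = 1.68e-07). The sarcomeric actinin Actn2 (-1.40 ± 0.24) and the adaptor Lims2 (-1.12 ± 0.20) fell as well, and cardiomyocyte markers fell with them (5 of 8 lower and 1 higher in gene reads, 6 lower and 1 higher in exon reads), a part that was not tested. The kinase Ptk2b (1.36 ± 0.20) and the parvin Parvb (1.26 ± 0.20) rose. Ptk2b had 0 exon reads in every library and Actn2 had 0 and 1 against 0 and 1, so these changes were in reads outside exons. Of 38 basement membrane and laminin-binding genes 9 rose and 7 fell, with a median of 0.02, and on exon reads 10 of 28 rose and 4 fell. Smoc1 (1.81 ± 0.21) and the fibulin Fbln2 (1.43 ± 0.21) rose, and Frem2 (-1.56 ± 0.24) and Egflam (-1.19 ± 0.21), the latter a ligand of dystroglycan, fell. Exon reads were scarce, 0 and 0 against 1 and 1 for Smoc1 and 1 and 1 against 2 and 1 for Egflam. Dag1, the dystroglycan that binds Lama2, fell in gene reads (734 and 493 against 235 and 359, -1.21 ± 0.21) and rose in exon reads (10 and 14 against 30 and 36, 1.20 ± 0.41, edgeR adjusted p = 0.0322). Of 17 partner membrane proteins 7 rose and 2 fell, and on exon reads 5 of 12 rose and 2 fell. In gene reads the syndecan Sdc4 (1.59 ± 0.24), the endocytic receptor Lrp1 (1.54 ± 0.26) and the tetraspanin Tspan4 (0.58 ± 0.20) rose, and basigin, Bsg (-0.98 ± 0.22), fell. Exon reads of Sdc4 and Lrp1 also rose. Those of Bsg, 12 and 16 against 9 and 11, did not pass (edgeR adjusted p = 0.255). Those of Tspan4, 0 and 4 against 2 and 2, were too few for a test.

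By the authors' deposited table, 12 of the integrin and laminin genes were higher and 4 lower at a corrected p-value under 0.05. All 16 were among the 19 that changed here, and Itga2, Itga3 and Lama3 were the ones called here only. Reads outside exons carried several of these calls. No fall in gene reads was matched in exon reads, which were 0 for Itgad, Itgb6 and Lamb3 and did not pass for Itga6. No exon read in any library fell on 6 of the 37 genes, Itga3, Itgad, Itgb4, Itgb6 and Lamb3 among them. Among genes with at least 10 exons and 100 gene reads this was so for 5 of 31 of these genes (16.1%) and for 1250 of 7825 genes in all (16.0%). In GENCODE M21, 20 of the 37 genes, and 9 of the 19 that changed, overlap another gene. An overlapping gene had reads for 6 of the 37, and the share over all genes was not computed.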

How the data were processed

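RNA of 4 hearts was depleted of ribosomal RNA and made into SOLiD libraries, per the labels' protocols, on the GRCm38 build, per the submitters' processing notes. The sources used here do not name the aligner, the counting program or the use of strand. The deposited counts are gene, exon and intron reads per gene. Of 2605955 deposited exon reads, 29 did not cross a junction, and 13626 genes list no exon and take 72.0 and 73.4% of the WT gene reads against 63.7 and 61.7% of the PRMT1-cKO ones. When recomputed, the RPKM values of the authors were exon reads per exon length and per total of gene reads, and served to choose genes only. The p-value and the signed fold change score in the authors' deposited table come from their EDGE test, per the file headers.

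The quasi-likelihood test of edgeR 4.0.16 (R 4.3.3) was run on TMM-scaled counts with genotype alone in the model, after filterByExpr at a minimum count of 10 and total of 15. It is two-sided, with Benjamini-Hochberg adjustment over all genes. Exon and intron reads of a gene were compared with diffSpliceDGE. A standard error is the log2 change over the square root of F. Steps were run on simulated counts as a check of the code. Those counts had the same dispersion for all genes and no shift in read composition between groups. For exon against intron reads, the simulated difference was larger than those of Lama5 and Lamb2. The runs therefore do not show how the tests perform on these data. Alternatives were RLE and upper-quartile scaling, DESeq2 1.42.0, no filter, a minimum count of 30, a replicate block, genes without a listed exon left out, and each library left out.

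Members and lists were chosen with earlier results of these data known. Values per library are given for members past a test and for the 5 highest by RPKM, and from each list for up to 5 genes past the gene-read test, by size of change, at a mean of at least 5 CPM. Other members named with values, and the overlapping and marker genes, were chosen after their values were seen. Starts are printed 1-based. The values of 1 member, which enters the counts, are not reported here.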

Additional observations from a re-analysis of the deposited data

How the results depend on the processing

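With 2 hearts a group, leaving out WT replicate 1 left the fewest gene-read and intron-read calls, and leaving out PRMT1-cKO replicate 1 the fewest exon-read calls. Of the 19 gene-read calls 11 held in every fit that left out a library and 10 in every alternative (Itga4, Itga5, Itgam, Itgax, Itgb2, Itgb3, Itgb5, Itgb6, Itgb8 and Lamb3). Of the 8 exon-read calls 3 and 2 did (Itga5 and Itgb5 in both). Leaving out a library gave 9 to 14 gene-read rises and 2 to 5 falls, 4 to 9 exon-read rises and 0 to 1 falls, 7 to 13 intron-read rises and 4 to 8 falls, and 0 to 3 exon against intron calls. A minimum count of 30 left 3 exon-read rises and 1 fall (Lama2). The replicate block gave 14 gene-read rises and 4 falls, 8 exon-read rises, 12 intron-read rises and 6 falls, and 0 exon against intron calls. The labels do not say whether replicate numbers pair the hearts. Differences of replicate 1 from replicate 2 in WT and in PRMT1-cKO correlated at -0.124 in gene reads, -0.0092 in exon reads and -0.0934 in intron reads. With 4 libraries these values cannot decide on a pairing. The crossed pairing, added after seeing the data, gave 15 rises and 6 falls in gene reads and 8 rises and 1 fall in exon reads. DESeq2 gave 11 rises and 3 falls in gene reads. No scaling moved the median of all genes by more than 0.1.

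Directions turned when a library was left out, in readouts in which the gene was not called. Over the fits that left out a library, gene-read log2 changes ran from -0.069 to 0.42 for Itga7, -0.13 to 0.36 for Itga9, -2.62 to 0.069 for Itgb4, -0.18 to 0.15 for Lama1 and -0.33 to 0.042 for Lamb2. Exon-read changes ran from -0.25 to 0.12 for Itga1, -0.83 to 1.19 for Itga6, -0.057 to 0.53 for Itga9, -0.13 to 0.10 for Itgb1 and -0.18 to 0.072 for Lama5. The cause was not tested. Of 803 values of single genes under an alternative, 704 kept direction and call, 77 lost the call, 8 gained one and 14 turned. Few exon reads a library limit what can be tested for the scarcer chains.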
